A study of Oryctolagus cuniculus with 16 samples.

Results

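The comparison described here asked whether raised flow changed gene expression differently in the 2 layers of the straight basilar artery (BA) of the rabbit. It was the change with ligation in the intima minus the change with ligation in the media. The intima was the luminal strip that held the endothelial cells (ECs), and the media was the remaining wall, which held the vascular smooth muscle cells (VSMCs). Of the 16 RNA-seq libraries of the series, the 8 from the BA were used, and the other 8 came from the basilar terminus (BT), the bifurcation at its end. Both layers were cut by laser from the same vessel of each of 4 female New Zealand white rabbits, 24 h after surgery. Sham surgery was done on rabbits 3 and 4. In rabbits 5 and 6 both common carotid arteries were ligated, which sends more blood through the basilar artery. Each of the 4 groups, sham intima, ligated intima, sham media and ligated media, thus held 2 libraries, 1 per rabbit.

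Flowing blood drags on the endothelium, a force called wall shear stress, and the contractile VSMCs of the media set the tone and much of the matrix of the wall. Shear stress is known to act on the endothelial release of nitric oxide, growth factors and cytokines, and the media is known to respond with changes in contractile proteins, matrix and proteases. A gene whose change differs between the layers is one for which the ratio of intima to media differs between ligated and sham rabbits, and that ratio can be taken within each animal.

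Counts on named genes ranged from 2154863 to 17686105 per library, and levels are given as CPM, counts scaled to the size of the library, with TMM scaling, a correction for library composition. The endothelial markers PECAM1, VWF and CDH5 were higher in the intima than in the media of every rabbit. PECAM1, an adhesion molecule of endothelial junctions, stood at 176 and 449 CPM in the sham intima and 439 and 646 CPM in the ligated intima. In the media it stood at 2.88 and 35.2 CPM in sham rabbits, and at 146 CPM in ligated rabbit 5 against 5.73 CPM in ligated rabbit 6. VWF, the clotting protein stored in ECs, was likewise at 666 and 2320 CPM in the sham intima, 615 and 1040 CPM in the ligated intima, and 31.5, 180, 295 and 45.1 CPM in the media of rabbits 3, 4, 5 and 6. The media library of rabbit 5 thus held more endothelial RNA than the other 3 media libraries. CDH5, the cadherin of endothelial junctions, was low everywhere, at 10.2 to 54.3 CPM in the intima and 0 to 8.32 CPM in the media. MMRN2, a further endothelial marker, ran the other way. It was at 39.6 and 75.2 CPM in the sham intima against 77.5 and 115 CPM in the sham media. In ligated rabbits it was at 50.1 and 48.7 CPM in the intima against 88.9 and 109 CPM in the media. The intima strips also held smooth muscle RNA. ACTA2, smooth muscle actin, was at 33700 to 70400 CPM in the intima and 70000 to 113000 CPM in the media, and the sham intima of rabbit 3, at 70400 CPM, was within the media range. The layer difference itself passed the test for 0 of 9514 genes in sham rabbits (0%; smallest q-value 0.073, with 516 genes at an unadjusted p below 0.05) and for 1 gene in ligated rabbits (0.0105%). That gene was SPHKAP, an anchor protein for protein kinase A, at 150 and 123 CPM in the ligated intima against 4.68 and 2.87 CPM in the ligated media. No gene passed between the ligated layers under RLE scaling, the filterByExpr filter or the version 4 form of edgeR, without the rabbit block, or without rabbit 5 or rabbit 6. Genes were tested with edgeR's quasi-likelihood test, and the q-value is the p-value after Benjamini-Hochberg adjustment over all genes tested, with a threshold of 0.05. Fewer cells of a type and less RNA per cell cannot be told apart in these libraries.

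No gene passed the threshold for a layer difference in the ligation response. The fit with rabbit as a block tested 9514 genes and called 0 higher (0%) and 0 lower (0%) in the intima, with a smallest q-value of 1. At an unadjusted p below 0.05, 99 genes (1.04%) had the higher change in the intima and 133 (1.40%) the lower. DESeq2 with the same design called 11 genes, 6 higher and 5 lower in the intima, and limma voom called 0. The median gene differed by -0.13 on the log2 scale, and 54.7% of genes lay below 0. With 2 rabbits per group the intervals were wide. The median half-width of the 95% interval of the difference was 3.20 on the log2 scale over all genes, and 1.15 over the 1532 genes with a mean above 100 CPM. Of those 1532 genes, 20 had an interval that lay wholly within 1 log2 unit of 0. A missing call therefore does not show that the layers responded alike.

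**Figure D1:**
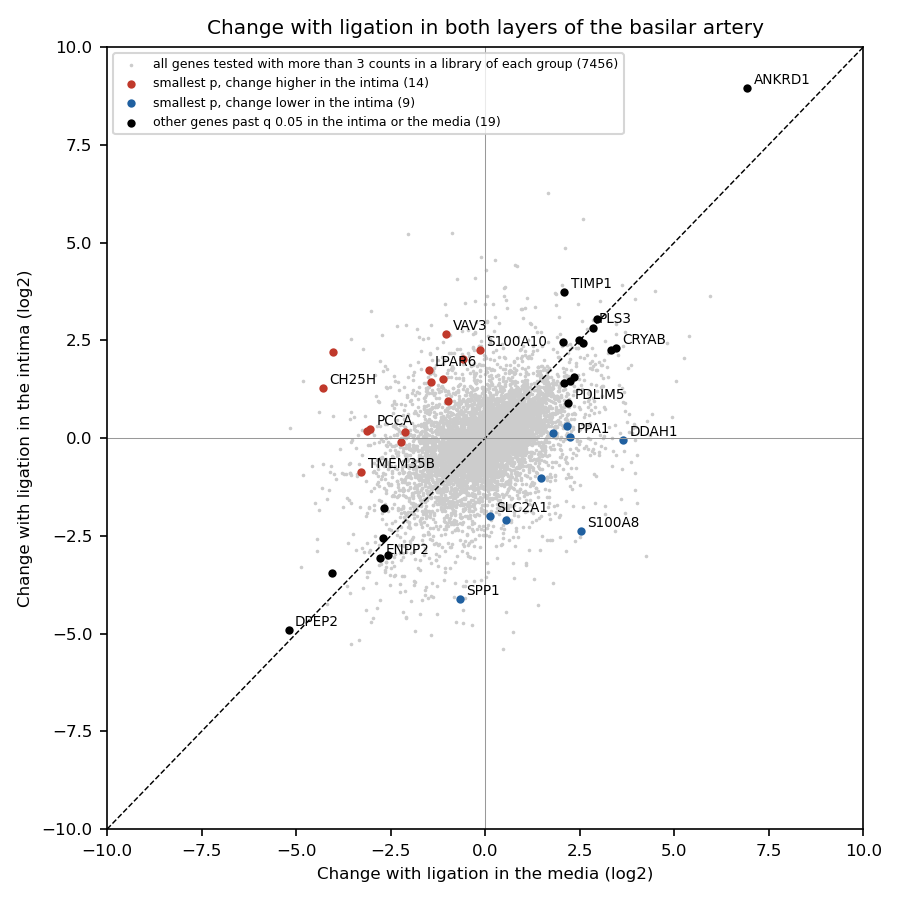
Change with ligation in the media (horizontal axis, log2) against the change in the intima (vertical axis, log2) for the 7456 genes with more than 3 counts in at least 1 library of every group. The dashed line marks equal change. Black points are genes past the q-value threshold in a layer, most of which lie near the line, and red and blue points are the genes with the smallest p of the layer difference, such as S100A10 above the line and SPP1 below it.

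Few genes passed the threshold for a response to ligation within a layer. Within the intima, 7 genes rose (0.0736% of those tested) and 5 fell (0.0526%), and within the media 14 rose (0.147%) and 6 fell (0.0631%). These counts joined 24 genes, of which 8 passed in both layers, 4 in the intima alone and 12 in the media alone. Both layers came from the same 4 rabbits, so the layers are not independent of each other. Of the 24, those that neither led the layer difference nor stood among the first of a list were picked once their values were known. A q-value of 1 held for the layer difference of every gene below, and each 95% interval is for 1 gene and not adjusted for the number of genes. Changes within a layer came from a fit without the rabbit block, and layer differences from the fit with it. A difference therefore need not equal the gap between the changes.

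PLS3, the actin-bundling protein plastin 3, stood at 236 and 248 CPM in the sham intima and 2250 and 1180 CPM in the ligated intima, and at 289 and 256 CPM in the sham media and 2090 and 1820 CPM in the ligated media. Its ligated libraries lay above its sham libraries in both layers. It rose by 2.83 ± 0.40 (log2, SE) in the intima (q = 0.0272) and by 2.84 ± 0.40 in the media (q = 0.0303). The layer difference from the block fit was -0.09, with a 95% interval from -1.08 to 0.91. ATP5PF, a subunit of mitochondrial ATP synthase, rose by 2.51 and 2.48 in the intima and media, with a difference of 0.04 (95% interval -0.90 to 0.98). ABCC9, the sulfonylurea receptor of vascular potassium channels, rose by 3.05 and 2.96, with a difference of 0.08 (95% interval -0.96 to 1.11). Among the genes that fell in both layers, ENPP2, the enzyme autotaxin that makes lysophosphatidic acid, went from 353 and 353 CPM to 33.6 and 50.8 CPM in the intima and from 148 and 176 CPM to 23.9 and 22.9 CPM in the media. The dipeptidase DPEP2 and the fibronectin-domain protein FNDC1 fell in both layers as well. For the 7 genes called in both layers other than ANKRD1, the difference lay between -0.31 and 0.45, and their intervals together ran from -2.21 to 2.37.

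ANKRD1, a cardiac and vascular ankyrin repeat protein and a known target of the mechanosensitive factor YAP, had the largest changes of the 8. It was at 5.98 and 0.227 CPM in the sham intima and 2250 and 873 CPM in the ligated intima, and went from 26.2 and 12.1 CPM to 2610 and 2090 CPM in the media. The intima was below the media in all 4 rabbits, and the gap was narrower in the ligated rabbits. The rise was 8.94 (q = 0.0272) in the intima and 6.93 (q = 0.0391) in the media. The layer difference from the block fit, 2.63 ± 0.94, did not pass the threshold (95% interval 0.45 to 4.80, q = 1). TIMP1, an inhibitor of matrix metalloproteases, stood below the media in the sham intima of both rabbits, at 446 and 353 CPM against 1040 and 905 CPM. In ligated rabbits it was at 4700 and 5940 CPM in the intima and 5770 and 2520 CPM in the media, so that rabbit 5 still had less in the intima and rabbit 6 had more. TIMP1 rose by 3.74 in the intima (q = 0.0272), and its change in the media was 2.10 (q = 0.0915). Its layer difference from the block fit was 1.76 ± 0.55 (95% interval 0.48 to 3.03, q = 1). ITGB3, the integrin beta 3 subunit, rose by 2.45 in the intima (q = 0.0349) with a value of 2.07 in the media (q = 0.0593), and RYR2, the calcium release channel of the sarcoplasmic reticulum, fell by 2.98 in the intima (q = 0.0473) with a value of -2.58 in the media (q = 0.0605). For ITGB3 and RYR2 the intervals of the difference, -0.69 to 1.40 and -1.83 to 1.04, included 0.

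Among the 12 genes called in the media and not in the intima, PDLIM5, a PDZ and LIM protein of the actin cytoskeleton, was at 1220 and 1080 CPM in the sham media and 5110 and 5440 CPM in the ligated media, and at 1310 and 962 CPM and then 2210 and 2010 CPM in the intima. The ligated libraries lay above the sham libraries in both layers, and further so in the media. It rose by 2.20 in the media (q = 0.0325), its value in the intima was 0.89 (q = 0.574), and the difference was -1.29 ± 0.39 (95% interval -2.19 to -0.39, q = 1). CRYAB, a small heat shock protein abundant in muscle, rose from 3370 and 2220 CPM to 31900 and 29800 CPM in the media (log2 change 3.46, q = 0.0325), against 3560 and 1150 CPM and then 13200 and 9950 CPM in the intima (2.30, q = 0.201). RAP1B, a small GTPase of cell adhesion, TNC, the matrix protein tenascin C, ITGB1BP2, the integrin-binding protein melusin, and CACYBP, a partner of S100 proteins, also rose in the media, with differences of -0.84, -0.75, -0.99 and -0.68. GLIPR1, GNG11 and ALDH1A1, called in the media, had differences of -0.06, 0.25 and 0.89. In all, 7 of the 24 genes had an unadjusted p below 0.05 for the layer difference, beside 1.04% of all genes higher and 1.40% lower, and the remaining members of those 7 were SPP1, IL15, TM4SF18 and CIART. The 24 were chosen on the changes that make up this difference, in the same libraries. The count of 7 is therefore not independent evidence of a layer difference.

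**Figure D2:**
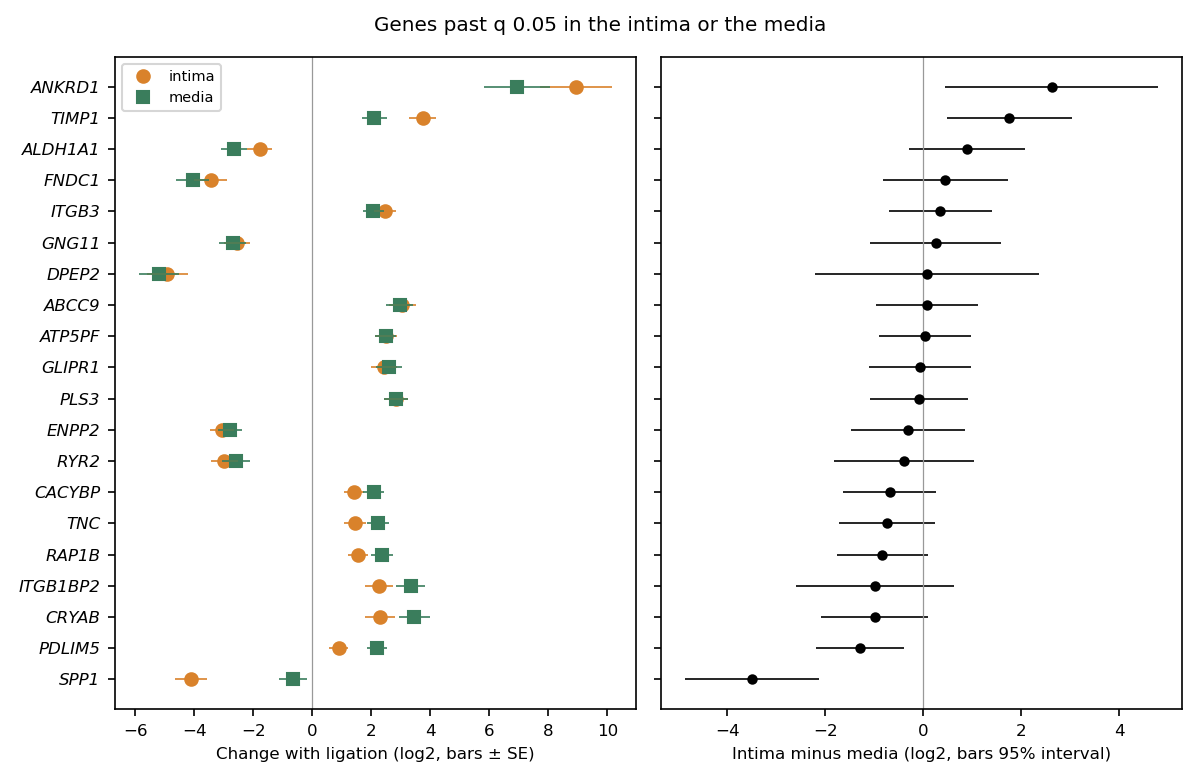
20 genes past the q-value threshold in the intima or the media that had more than 3 counts in a library of each group. The left panel gives the change with ligation in the intima (circles) and the media (squares) with its standard error, and the right panel gives the intima minus media difference with its 95% interval, all on the log2 scale. Only the intervals of ANKRD1, TIMP1, PDLIM5 and SPP1 lie clear of 0.

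Among the genes with the smallest p-values for a higher change in the intima, most had values of opposite sign in the layers. The 15 leading genes all had q = 1 in edgeR, and 15 of 15 had a value below 0 in the media and 12 of 15 a value above 0 in the intima. The genes were chosen on the difference of the layers, so these signs follow in part from the choice. Over all genes tested, 66.5% had the same sign in both layers, with 54.7% below 0 in the intima and 54.2% in the media. None of the 15 passed the threshold in the intima, and CIART was the only one to pass in the media.

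S100A10, the partner of annexin A2 that binds plasminogen at the cell surface, led this direction. It was at 138 and 161 CPM in the sham intima and 932 and 493 CPM in the ligated intima, whereas the media held 213 and 194 CPM in sham and 250 and 121 CPM in ligated rabbits. The intima of both ligated rabbits thus stood above every other library. The difference was 2.41 ± 0.43 on the log2 scale (95% interval 1.43 to 3.40), and DESeq2 gave q = 0.000302. VAV3, an exchange factor for small GTPases of the cytoskeleton, was at 18.9 and 5.07 CPM in the sham intima and 61.4 and 90.9 CPM in the ligated intima, against 135 and 98.8 CPM and then 69.7 and 45.1 CPM in the media. Its order between the layers was thus intima below media in the sham rabbits, intima below media in rabbit 5 and intima above media in rabbit 6. The VAV3 difference was 3.96 ± 0.79 (95% interval 2.14 to 5.78), and DESeq2 gave q = 0.00516. LPAR6, a receptor for lysophosphatidic acid, the product of ENPP2, was at 32.7 and 130 CPM in the sham intima and 377 and 162 CPM in the ligated intima. In the media LPAR6 was at 34.4 and 39.5 CPM in sham rabbits and 22.9 and 4.17 CPM in ligated rabbits, a difference of 3.80 ± 0.80 (95% interval 1.96 to 5.64; DESeq2 q = 0.00562).

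Another group of these genes had similar levels in the intima of sham and ligated rabbits and low levels in the ligated media. PCCA, a subunit of the mitochondrial propionyl-CoA carboxylase, was at 76.6 and 102 CPM in the sham media and 14.6 and 7.30 CPM in the ligated media, while the intima held 84.1 and 45.1 CPM and then 107 and 44.4 CPM. The difference was 3.26 ± 0.72 (DESeq2 q = 0.0389). NAXE, a repair enzyme for damaged NADH and NADPH, was at 91.3 and 136 CPM in the sham media and 26.5 and 22.4 CPM in the ligated media, with 76.1 to 109 CPM in the 4 intima libraries. Its difference was 2.08 ± 0.55 (95% interval 0.81 to 3.36). GRN, the growth factor progranulin, was at 50.2 and 87.3 CPM in the sham media and 19.8 and 12.2 CPM in the ligated media, and ranged from 42.4 to 116 CPM in the intima, where the ligated libraries overlapped the sham libraries (difference 2.18 ± 0.65, 95% interval 0.68 to 3.69). SDCCAG8, a centrosomal protein, and TMEM35B had differences of 3.69 and 2.70.

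LOXL1, an enzyme that cross-links elastic fibres, was at 58.0 and 80.3 CPM in the sham intima and 138 and 129 CPM in the ligated intima, and at 129 and 169 CPM and then 90.5 and 59.2 CPM in the media. Intima was below media in both sham rabbits and above it in both ligated rabbits, a difference of 1.98 ± 0.52 (95% interval 0.78 to 3.19). CIART, a repressor of the circadian clock, fell in the media, from 63.0 and 71.2 CPM to no counts in either ligated library, at least 57.3-fold lower when 3 counts per library are taken as the limit of detection (q = 0.0256). In the intima CIART was at 67.0 and 34.9 CPM in sham and 1.89 and 3.70 CPM in ligated rabbits (q = 0.0926), so the difference between the layers was at least 1.65 on the log2 scale. The depth of the ligated media libraries, the lowest of the 8, set that limit. CH25H, which makes 25-hydroxycholesterol, NXT2, a factor of RNA export, AMMECR1, IL18BP, which neutralises interleukin 18, and DTX3L, a ubiquitin ligase of the interferon response, made up the rest, with differences from 2.93 to 7.57 on the log2 scale. CH25H had no count in 1 of the sham intima libraries and 0.261 CPM, 1 count, in the media of rabbit 6.

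Genes with a lower change in the intima were led by SPP1. These 15 leading genes also had q = 1, and 10 of 15 had a value below 0 in the intima and 11 of 15 a value above 0 in the media. They too were chosen on the difference, so these signs follow in part from the choice. SPP1 encodes osteopontin, a secreted matrix protein and cytokine. It was at 412 and 231 CPM in the sham intima and 12.9 and 24.0 CPM in the ligated intima, but at 441 and 249 CPM in the sham media and 264 and 173 CPM in the ligated media. The sham levels were close in the layers of each rabbit, and after ligation the intima alone stood far below. SPP1 fell in the intima by 4.12 on the log2 scale (q = 0.0272), 17.4-fold in the mean level, and its value in the media was -0.66 (q = 0.642). The difference was -3.49 ± 0.60 (95% interval -4.87 to -2.12), the smallest p of all 9514 genes, with q = 1 in edgeR and q = 0.000302 in DESeq2. Leaving out each rabbit in turn gave -4.24 to -2.73. The study had picked SPP1 as an intimal gene from these libraries, so its intimal fall is not independent evidence.

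SLC2A1, the glucose transporter GLUT1 and a marker of barrier endothelium, was at 96.2 and 817 CPM in the sham intima and 137 and 92.6 CPM in the ligated intima, against 7.91 and 77.1 CPM and then 45.2 and 46.4 CPM in the media. Both sham libraries of rabbit 4 stood far above those of rabbit 3, while the ratio of intima to media was alike in those animals, and the difference was -2.21 ± 0.49 (95% interval -3.34 to -1.07). For several other genes of this group the sham media was the low one. PPA1, a pyrophosphatase, was at 9.77 and 58.3 CPM in the sham media and 175 and 147 CPM in the ligated media, with 99.8 to 238 CPM in the intima (difference -2.64 ± 0.66, 95% interval -4.17 to -1.10). DDAH1, which degrades the natural inhibitor of nitric oxide synthase, was at 13.4 and 3.71 CPM in the sham media and 88.9 and 127 CPM in the ligated media, whereas the intima held 16.6 and 37.0 CPM and then 16.3 and 35.3 CPM. The DDAH1 difference was -3.90 ± 1.10 (95% interval -6.44 to -1.37). CARD19 and MINDY3, a deubiquitinase, followed the same order, with differences of -2.18 and -1.69. PARP2, an enzyme of DNA repair, was at 45.8 and 54.1 CPM and then 12.0 and 37.5 CPM in the intima and at 25.0 and 38.4 CPM and then 72.3 and 103 CPM in the media (difference -2.70 ± 0.72, 95% interval -4.38 to -1.03). TMEM45A was at 158 and 190 CPM in the sham intima and 10.2 and 70.8 CPM in the ligated intima (difference -3.26 ± 0.92, 95% interval -5.39 to -1.13).

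**Figure D3:**
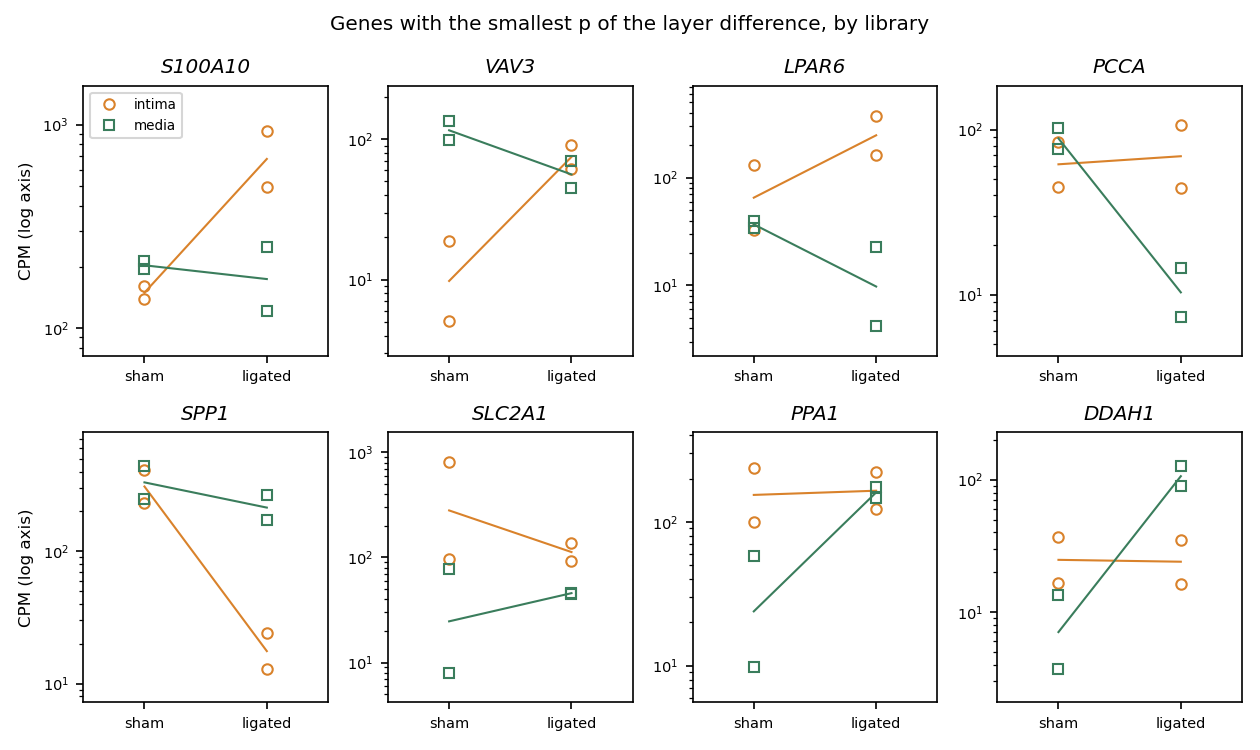
CPM on a log axis in each library of the sham and ligated rabbits for 4 of the genes with the smallest p for a higher change in the intima (upper row) and 4 for a lower change (lower row). Circles are intima, squares are media, and each line joins the geometric means of the sham and the ligated pair. The intima falls away from the media for SPP1, whereas for PPA1 and DDAH1 the media moves and the intima is level.

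IL15, a cytokine for lymphocytes and muscle, had no counts in either sham media library and 13 and 7.30 CPM in the ligated media, at least 26.6-fold higher (q = 0.0377). In the intima IL15 was at 8.31 and 27.8 CPM in sham and 68.4 and 54.3 CPM in ligated rabbits (q = 0.701), a layer difference of at least 2.97 log2 units in the direction of the media. LUM, the collagen-binding proteoglycan lumican, was at 346 and 9.15 CPM in the sham intima and had no counts in the ligated intima (q = 0.0883). In the media LUM was at 1690 and 602 CPM in sham and 219 and 177 CPM in ligated rabbits. By the group means, the change in the intima was at least 6.23 log2 units lower. The sham intimal mean rested mostly on rabbit 3, so this is not a limit for each animal. MATN2, the matrix protein matrilin 2, had the same pattern, with 20.1 and 2.27 CPM and then no counts in the intima and 117, 92.2, 53.6 and 38.6 CPM in the media of rabbits 3, 4, 5 and 6. The summed level of 11 markers of leptomeningeal and adventitial cells stood at 4630 and 358 CPM in the sham intima, 1090 and 480 CPM in the ligated intima, 13600 and 13500 CPM in the sham media and 2080 and 1800 CPM in the ligated media. In the sham media the sum was mostly APOD, at 12100 and 9790 CPM, and APOD was at 915 and 872 CPM in the ligated media. In the intima APOD was at 3870 and 12.5 CPM in sham and 598 and 9.41 CPM in ligated rabbits. Other members ran differently, such as ALDH1A2, at 103 and 69.4 CPM and then 551 and 403 CPM in the media, and CRABP2, highest in the ligated intima of rabbit 6 at 137 CPM. The part of these cells in the LUM and MATN2 values was not tested. ALOX5AP, needed for leukotriene synthesis in leukocytes, was at 18.9 and 6.20 CPM in the sham intima and without counts in the ligated intima, S100A8, a protein of neutrophils, reached 148 CPM in the sham intima of rabbit 4 alone, and SLC19A3, a thiamine transporter, had 0 and 2 counts in the sham media. CASQ1, the calcium store protein calsequestrin 1, had no counts in the sham media and 10.4 and 31.5 CPM in the ligated media.

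Most endothelial markers had the lower change in the intima. Of the 14 tested, 0 passed the threshold, 10 lay below 0 and 4 above, with a median of -0.98, or -0.62 with genes near 0 counts held at the 3-count limit, beside -0.13 and 54.7% below 0 over all genes. The median change was -0.15 in the intima and 1.41 in the media. Without rabbit 5, 6 of 14 lay below 0. The ligated media of rabbit 5 held 1510 CPM of summed endothelial markers against 602 to 938 CPM in the other media libraries. That sum does not measure endothelial RNA alone. It includes ESAM, at 365 to 479 CPM in the media and 272 to 666 CPM in the intima, and TM4SF18, at 330 CPM in that library of rabbit 5. TM4SF18, a tetraspanin-like protein of ECs, was at 17.5 and 33.0 CPM in the sham intima and 496 and 1210 CPM in the ligated intima (q = 0.0926). It had no counts in the sham media and 330 and 47.4 CPM in the ligated media, at least 494-fold higher (q = 0.0256), with the higher level in the library of rabbit 5. ERG, the endothelial transcription factor, was at 38.5 and 137 CPM and then 80.5 and 55.3 CPM in the intima and 5.58 and 31.3 CPM and then 55.1 and 20.6 CPM in the media (difference -1.47 ± 0.69, 95% interval -3.06 to 0.12). KDR, the VEGF receptor, did not exceed 2.08 CPM in any library.

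Among 18 flow-responsive endothelial genes, 0 passed, with 7 above and 11 below 0. ASS1, which supplies arginine for nitric oxide, was at 11.4 and 119 CPM in the sham intima and 170 and 191 CPM in the ligated intima, and in the media went from 0 and 1.78 CPM in sham to 47.8 and 5.73 CPM in ligated rabbits. The medial level was again higher in rabbit 5, and the part of endothelial RNA in it was not tested (difference -3.20 ± 1.33, 95% interval -6.28 to -0.12). Without rabbit 5 the ASS1 difference was -1.48, and without rabbit 4 it was -6.19. ICAM1, an adhesion molecule for leukocytes, had a difference of 3.26 ± 1.53 (95% interval -0.28 to 6.81), and CCL2, a chemokine for monocytes, was at 65.0 CPM in the sham intima of rabbit 3 and without counts in the other 3 intima libraries.

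Contractile genes of VSMCs lay below 0 in 14 of 14 cases with a median of -0.41, and 0 passed the threshold. The largest values were those of DES, the intermediate filament desmin, at 436 and 460 CPM and then 372 and 628 CPM in the intima and 527 and 1590 CPM and then 1520 and 3290 CPM in the media (difference -1.18 ± 0.56, 95% interval -2.47 to 0.11), and of ACTA2, with a difference of -0.74 ± 0.45 (95% interval -1.78 to 0.31). TPM2, the tropomyosin beta chain, and MYH11, smooth muscle myosin, had differences of -0.60 and -0.23, and both had values below 0 in each layer. The count rested on single rabbits. Without rabbit 3, whose sham intima held 113000 CPM of summed contractile genes against 62100 to 70200 CPM in the other intima libraries, 5 of 14 lay below 0. Without rabbit 6 it was 6 of 14, without rabbit 4 or 5 it was 14 of 14, and with scaling by library size alone it was 10 of 14.

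Of 21 chaperones tested, 16 had values above 0 for ligation in the intima and 18 in the media, and 17 had the lower change in the intima (median -0.49; 0 passed the threshold). Their median change was 0.79 in the intima and 1.14 in the media, and CRYAB was the 1 member called, in the media. The 8 subunits of the TRiC chaperonin, the ring complex that folds actin and tubulin, had values above 0 in both layers, from 0.55 to 1.21 in the intima and from 0.97 to 1.63 in the media, and 7 of 8 had a difference below 0. CCT2 was at 506 and 382 CPM and then 657 and 645 CPM in the intima, and at 428 and 342 CPM and then 1190 and 1190 CPM in the media. Its ligated libraries stood above its sham libraries in each layer, with the larger step in the media (difference -1.08 ± 0.39, 95% interval -1.98 to -0.18). CCT4 had a difference of -0.75 (95% interval -1.67 to 0.17). Leaving out a rabbit gave 15 to 18 of 21 members below 0, and scaling by library size alone, which moved the median of all genes to 0.09, gave 12 of 21 and 5 of the 8 TRiC subunits.

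Matrix genes divided, with 17 of 31 above 0 and 14 below (median 0.15; 0 passed). The count below 0 ran from 9 of 31 without rabbit 3 to 20 of 31 without rabbit 4. Their median change was -0.22 in the intima and -0.94 in the media, and TNC was the 1 member called, in the media. THBS1, thrombospondin 1, was at 2310 and 891 CPM and then 3810 and 1960 CPM in the intima and 1810 and 1210 CPM and then 7130 and 4740 CPM in the media (difference -1.04 ± 0.44, 95% interval -2.06 to -0.02). On the other side, COL1A1, a chain of type I collagen, was at 22.2 and 23.9 CPM in the sham media, with 2.12 to 8.09 CPM in the intima. Both ligated media libraries held 2.08 CPM, from 4 and 8 counts (difference 3.85 ± 1.73, 95% interval -0.16 to 7.86). The partner chain COL1A2, at 3700 and 4050 CPM in the sham media, differed by 0.86 (95% interval -0.45 to 2.17). COL3A1, at 6770 and 8090 CPM there, differed by -0.32 (95% interval -1.43 to 0.79). FBLN5, an elastic fibre protein, had a difference of 1.58 ± 0.75 (95% interval -0.14 to 3.31). Of the 10 leucine-rich proteoglycans tested, 5 lay on each side, and without rabbit 4 it was 8 of 10 below 0. OMD, osteomodulin, was at 259 and 324 CPM and then 20.9 and 55.3 CPM in the intima and at 3.91 to 29.9 CPM in the media (difference -2.19 ± 1.36, 95% interval -5.34 to 0.96), and BGN, biglycan, differed by 0.99 (95% interval -0.60 to 2.58).

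Proteases and their inhibitors held 4 members with an unadjusted p below 0.05 and a higher change in the intima, among 25 tested (13 above and 12 below 0), beside 1.04% of all genes. Without rabbit 6, 18 of 25 lay below 0. TIMP1 was the first of the 4 members. The study had picked TIMP1 and ADAMTS9 from these libraries, so the count of 4 is not independent evidence. ADAMTS9, a protease of versican and aggrecan, was at 15.2 and 4.46 CPM and then 30.5 and 99.3 CPM in the intima, and at 23.7 and 14.2 CPM and then 17.7 and 13.8 CPM in the media. The ligated intima lay above the sham intima, and the media groups overlapped (difference 2.97 ± 1.05, 95% interval 0.55 to 5.39). MMP9 was seen in the sham media of rabbit 4, at 56.5 CPM, and otherwise with 1 count in the ligated intima of rabbit 5, so its difference rests on a single library. Of 14 YAP targets, 9 lay below 0, but 3 of 14 did without rabbit 6 and 6 of 14 with scaling by library size alone. Beside ANKRD1 the values were those of PTPN14, a phosphatase without counts in the ligated media, and DLC1, a tumour suppressor with a difference of -0.72 (95% interval -1.69 to 0.25). The rise of ANKRD1 was not shared by most of the list. For ligation itself, 4 of the 14 had values above 0 in the intima and 6 in the media, with medians of -0.24 and -0.18. CYR61 was at -1.62 in the intima and -0.96 in the media, and CTGF at 0.96 and 0.99.

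Growth factors and their receptors lay on both sides of 0. Of 24 growth factors, 10 lay above and 14 below 0, with 3 at an unadjusted p below 0.05 and lower in the intima, beside 1.40% of all genes. The study had picked CYTL1 and NDP, which are among the 3, from these libraries, so this count is not independent evidence. CYTL1, a small secreted cytokine-like protein, was at 7960 and 30700 CPM in the sham intima and 1100 and 1760 CPM in the ligated intima, and at 182 and 2180 CPM and then 460 and 176 CPM in the media. Its ligated intima libraries lay below its sham libraries (change -3.76, q = 0.365), while the media groups overlapped, and the difference was -2.34 ± 0.80 (95% interval -4.21 to -0.48). PDGFC was at 270 and 289 CPM and then 134 and 153 CPM in the intima, with 160 to 188 CPM in the media (difference -1.05 ± 0.45, 95% interval -2.10 to -0.01). NDP, the Wnt receptor ligand norrin, had 28.6 and 8.24 CPM in the sham intima and no counts in the ligated intima. By the group means of all 4 rabbits, its change was at least 1.41 log2 units lower in the intima. The media held 9 and 0 counts of NDP in ligated rabbits, and without rabbit 5 the fitted difference turned to 1.40. Among 24 receptors, 11 lay above and 13 below 0. BMPR1A, a BMP receptor, was at 272 and 229 CPM and then 127 and 134 CPM in the intima, against 250 and 343 CPM and then 419 and 400 CPM in the media, so the groups did not overlap in either layer and stood in opposite order (difference -1.42 ± 0.46, 95% interval -2.48 to -0.36). TGFBR1, the type I receptor for TGF-beta, had a difference of -1.18 ± 0.46 (95% interval -2.23 to -0.13) and NRP1, a co-receptor for VEGF, one of 2.52 ± 0.85 (95% interval 0.55 to 4.49).

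Vasoactive signalling genes had 12 of 23 above 0 and 3 with an unadjusted p below 0.05, all lower in the intima, beside 1.40% of all genes. NPY1R, the vascular receptor for neuropeptide Y, was at 193 and 194 CPM and then 29.6 and 44.7 CPM in the intima and at 72.1 and 159 CPM and then 63.4 and 87.0 CPM in the media (difference -1.88 ± 0.59, 95% interval -3.24 to -0.52). The intima was above the media in sham rabbits and below it in ligated rabbits. GUCY1B1, a subunit of the nitric oxide receptor, had a difference of -2.27 ± 0.75 (95% interval -4.00 to -0.54), with 199 and 107 CPM and then 17.7 and 93.8 CPM in the intima and 71.7 to 155 CPM in the media. KCNJ8, the pore subunit of the vascular ATP-sensitive potassium channel, had a difference of -1.88 ± 0.80 (95% interval -3.73 to -0.04), whereas its partner subunit ABCC9 rose in both layers.

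**Figure D4:**
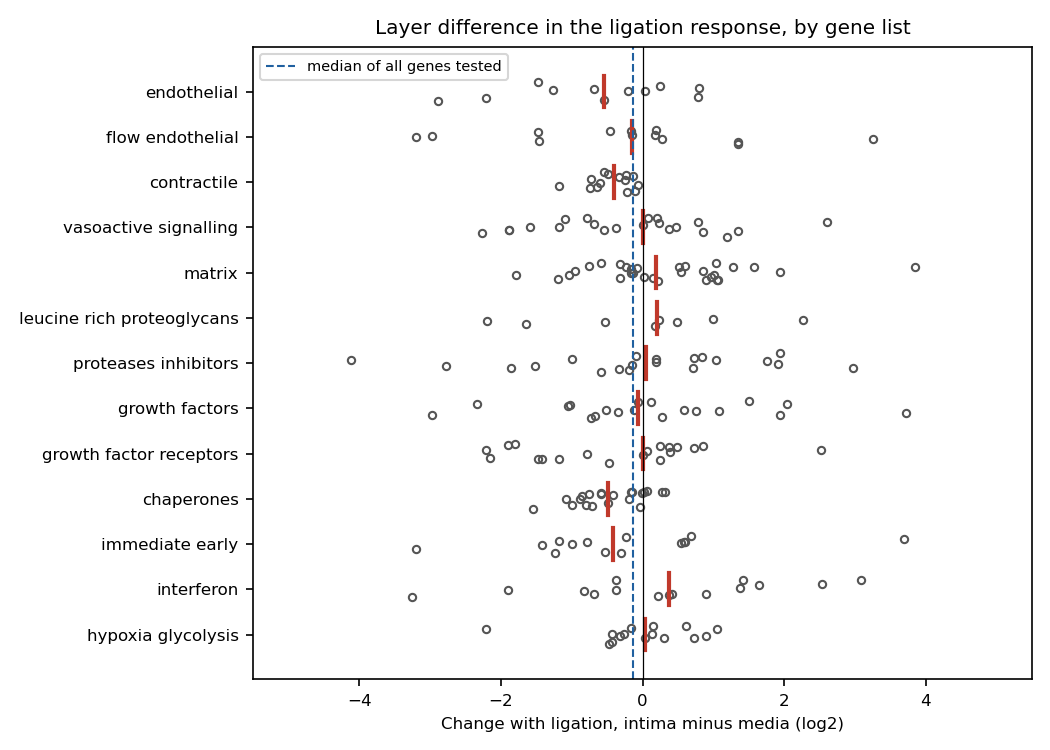
The intima minus media difference (horizontal axis, log2) of each tested member of 13 gene lists, for members with more than 3 counts in a library of each group. Red bars are list medians and the dashed line is the median of all genes tested, -0.13. The lowest plotted medians are those of the endothelial (-0.55), chaperone (-0.49), immediate early (-0.42) and contractile (-0.41) lists, and members of most lists lie on both sides of 0.

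Stress and immune lists showed no called member for the layer difference. Of 17 interferon response genes, 11 lay above 0 (median 0.42), with a median change of -0.01 in the intima and -0.97 in the media. IFIH1, a sensor of viral RNA, was at 14.5 and 32.2 CPM and then 28.9 and 43.5 CPM in the intima and 39.5 and 56.2 CPM and then 15.1 and 12.0 CPM in the media (difference 2.53 ± 0.84, 95% interval 0.58 to 4.47). ISG15, a ubiquitin-like protein, had a difference of 1.65 (95% interval -0.26 to 3.55). The high level of ISG15, 885 CPM, in the sham media of rabbit 4 stood apart from 151 CPM in rabbit 3. Leaving out each rabbit moved the count of interferon genes above 0 widely, with 2 of 17 below 0 without rabbit 5 and 11 of 17 below 0 without rabbit 6. Of 15 immediate early genes 9 lay below 0, led by ZFP36, which destabilises cytokine mRNA (difference -3.20, 95% interval -6.34 to -0.06), KLF10 (-1.42, 95% interval -2.84 to 0.01) and the phosphatase DUSP1 (-0.79, 95% interval -1.89 to 0.30). Of 19 inflammation genes 12 lay below 0, and without rabbit 5 it was 8 of 19. Beside SPP1 and IL15, TNFAIP6, a hyaluronan-binding protein, had no counts in the sham intima, 6.09 and 27.6 CPM in the ligated intima, 7.35 and 0 CPM in the sham media and 62.9 and 68.0 CPM in the ligated media. Of 16 hypoxia and glycolysis genes 8 lay on each side (12 below 0 without rabbit 6 and 6 without rabbit 5), with SLC2A1 the only member at an unadjusted p below 0.05, and GAPDH and HK1 at 0.73 and 0.89. In the cell cycle list 9 of 16 lay above 0, on few counts. MCM7 was at 1.56 to 18.0 CPM, TOP2A did not exceed 9.88 CPM and CDK1 did not exceed 6.55 CPM.

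Most markers of other cells were low or uneven. The summed leptomeningeal and adventitial markers, however, stood at 13600 and 13500 CPM in the sham media and 2080 and 1800 CPM in the ligated media. Of 13 macrophage markers 11 had entries and 9 were tested, 5 above and 4 below 0. Without rabbit 3 or rabbit 6, 1 of 9 lay below 0, and without rabbit 4 it was 9 of 10. Their summed level was at 745 and 78.1 CPM in the sham intima and 214 and 106 CPM in the ligated intima. In the media the sum was at 505 and 435 CPM in sham and 194 and 86.3 CPM in ligated rabbits, so it too was lower in the ligated media. CD74, AIF1, TYROBP and C1QC reached 247, 147, 141 and 82.8 CPM, each in the sham intima of rabbit 3. CD14 was at 55.0, 71.0, 69.7 and 99.7 CPM in the intima of rabbits 3, 4, 5 and 6, C1QA reached 39.5 CPM, and CD163 was at 0 to 14.3 CPM. Of 10 leptomeningeal markers tested 6 lay above 0, but the count rested on single rabbits, with 1 of 10 below 0 without rabbit 3 and 9 of 10 below 0 without rabbit 4. IGFBP6 was at 1170 and 1480 CPM in the sham media and 425 and 418 CPM in the ligated media, with 194 to 402 CPM in the intima (difference 1.11 ± 0.47, 95% interval 0.03 to 2.19), and ALDH1A2 and SLC13A4 were at 0.0756 CPM and 0 CPM in the sham intima of rabbit 4 against 57.8 and 41.6 CPM in that of rabbit 3. Brain markers summed to at most 12.7 CPM in any library, with GFAP and SNAP25 at 0 in 4 and 7 of 8 libraries, and SYT1 at no more than 9.25 CPM. Of 4 blood markers, AHSP was at 0.336 to 13.1 CPM and GP9 reached 3.18 CPM. ALAS2, the haem synthesis enzyme of red cells, was at 0, 558, 26.9 and 192 CPM in the intima of rabbits 3, 4, 5 and 6, so that rabbit 4 had the most erythroid RNA among the sham animals. S100A8 was highest in the same library.

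The study had selected 18 genes for extracellular products from these libraries, on their change in the intima and on the number of medial genes whose levels correlated with them over both locations, and 15 of the 18 had the lower change in the intima. Without rabbit 5 it was 9 of 18, and without rabbit 3 or with library size alone 12 of 18. The median was -2.27, or -1.29 with genes near 0 counts at the 3-count limit. Of the 18, 2 were higher (TIMP1 and ADAMTS9) and 5 lower (SPP1, IL15, LUM, CYTL1 and NDP) at an unadjusted p below 0.05, and 0 passed the threshold. The list was chosen on these samples, so its direction is not independent evidence.

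The same contrast was then taken at the BT of the same rabbits, in libraries that played no part in choosing the leading genes. The animals and surgeries were shared, so agreement between the locations is not independent evidence. No gene differed between the locations past the threshold (0 of 10077 genes, 0%, smallest q-value 1 in edgeR), 337 (3.34%) did so at an unadjusted p below 0.05, and DESeq2 called 27. At the BT itself 0 genes passed, with a smallest q-value of 0.355 and 445 genes at an unadjusted p below 0.05, 4.42% of those tested. Of the 15 genes with the lower change in the BA intima, 13 also lay below 0 at the BT, where 58.5% of the genes did, and 5 of them had an unadjusted p below 0.05. SPP1 was at 318 and 1730 CPM in the sham BT intima and 45.5 and 4.44 CPM in the ligated BT intima, with 276 and 244 CPM and then 233 and 492 CPM in the BT media. The intimal groups did not overlap and the medial groups did, a difference of -6.03 ± 1.42. The other 4 were S100A8 (-6.70 ± 2.10), SLC2A1 (-1.30 ± 0.44), DDAH1 (-5.61 ± 1.95) and LUM (-4.46 ± 1.71). In the ligated BT intima DDAH1 was at 0 and 8.22 CPM and LUM at 0 and 9.13 CPM. S100A8 was at 0 and 9.53 CPM in the sham BT media and at 5.26 and 0.904 CPM in the ligated BT intima. The sizes for S100A8, DDAH1 and LUM thus rest in part on libraries at or near 0.

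At the BT the 15 genes with the higher change in the BA intima lay on both sides of 0. Of the 15, 7 lay above 0, beside 41.1% of all genes, and 1 had an unadjusted p below 0.05 in that direction, GRN (1.58 ± 0.61). S100A10 had a difference of -0.13 ± 0.48 at the BT. It was higher in all 4 ligated BT libraries than in the sham libraries of the same layer, at 332 and 212 CPM and then 1120 and 591 CPM in the intima and at 55.4 and 83.8 CPM and then 273 and 191 CPM in the media. LPAR6 was at -1.51 ± 0.72, with 16.0 and 22.9 CPM in the sham BT media and 77.3 and 54.7 CPM in the ligated BT media, the order opposite to that of the BA media. TIMP1 and ANKRD1 had differences of 0.74 ± 0.55 and 1.10 ± 0.83 at the BT.

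**Figure D5:**
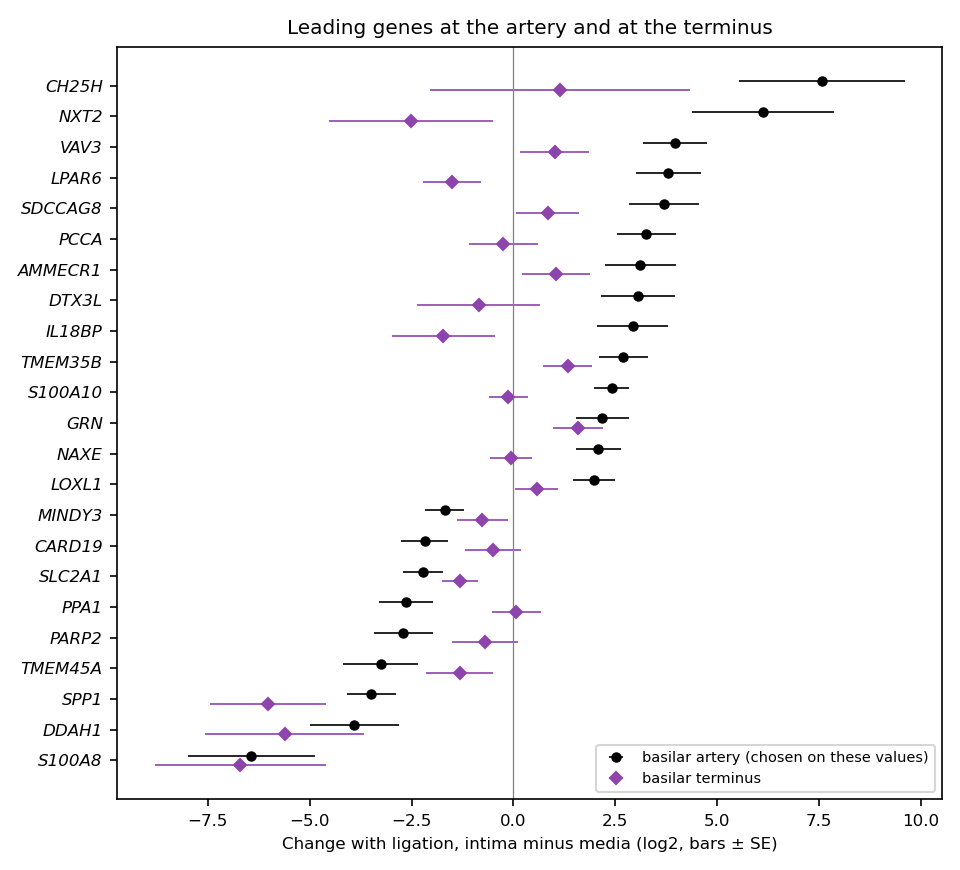
The intima minus media difference of the ligation change (horizontal axis, log2, bars ± SE) in the basilar artery (circles) and at the basilar terminus (diamonds) for 23 of the 30 leading genes, without the 7 that had 3 counts or fewer in every library of a group. The genes were chosen on the artery values. At the terminus SPP1, DDAH1 and S100A8 stayed well below 0, and S100A10, NAXE and PPA1 lay near 0. DDAH1 and S100A8 each had a terminus library at 0 CPM.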

How the data were processed

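RNA from laser-dissected intima or media was amplified with SMART-Seq v4. Per the submitters' processing notes and the study's methods, the authors aligned single reads to OryCun2.0 with STAR, kept unique alignments and counted them per gene with featureCounts 1.6.2, with its reverse-strand option per the methods, although the kit does not mark strand. The deposited values are raw counts for 13788 symbols, of which 22 were dates and 12688 were in the RefSeq symbol table, and 1 entry without a symbol, which held 13.9% to 17.9% of a library's counts and was left out. No column lacked a sample.

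The 8 BA libraries were fitted with edgeR 4.0.16 in R 4.3.3 (TMM, quasi-likelihood, legacy form, F test). Genes with a mean above 1 CPM in any group were tested. The contrast used rabbit as a block (4 rabbits, 2 residual degrees of freedom), because both layers of a rabbit came from 1 vessel. Changes within a layer came from the 4 groups without a block, since sham and ligated animals were different rabbits. The biological coefficient of variation was 0.708 with the block and 0.781 without it, and replicate libraries differed by more than counting error (chi-square per degree of freedom 18.6 to 413.8). The BT contrast came from 1 fit of all 16 libraries. A group without counts was set to 3 counts per library, a limit for counting error only, and the bounds compare group means. DESeq2 1.42.0 and limma 3.58.1 were alternatives, and the code was tested on simulated data. Intervals are at 95% and, in the block fits, cover the fitted spread of the ratio of intima to media between rabbits. They do not cover the spread of the levels themselves. Each SE from edgeR was the size of the log2 value divided by the square root of its F statistic.

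Named genes were the 15 with the smallest p in each direction (date symbols left out), the 3 with the smallest p in each of 21 lists, 6 layer markers, and any gene of a fit with 5 or fewer calls. The members and lists were chosen with earlier results of these data known. List members whose symbol was not in the table were not analysed here. Where genes overlap on opposite strands, their reads cannot be told apart. Results for some genes are not reported here, but the counts over all genes and over lists include them.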

Additional observations from a re-analysis of the deposited data

How the results depend on the processing

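The count of 0 genes for the layer difference held under RLE scaling, library size alone, all genes with a count, filterByExpr, edgeR's version 4 form, limma voom, the fit of all 16 libraries and without each rabbit. The exception was DESeq2, with 11 genes (6 higher, 5 lower), and without the replicate block the count was also 0. DESeq2 called 146 genes for the intima, 289 for the media, 226 for the layers in sham and 341 in ligated rabbits, and 27 between locations. Testing all genes with a count gave 179 for the intima, 349 for the media, 9 for sham and 6 for ligated layers, limma voom gave 36 and 6 for these layers, and filterByExpr gave 9 for the media. The 1 call between the ligated layers became 0 under RLE scaling, filterByExpr, the version 4 form and without the block of paired layers. The cause was not tested. Leaving out a rabbit gave 0 to 9 calls in the intima, 0 to 3 in the media, 0 to 12 between sham layers and 0 to 1 between ligated layers, in fits where the lone rabbit of a group was assumed to vary like the others. Libraries as shallow as 2154863 counts limit the values of genes listed with few counts, which are bounds where a group had none.

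Of the 30 leading genes, 0 of 390 recomputed values turned sign. Those genes were chosen for the smallest p of this difference in the same libraries, so their steady sign follows in part from the choice. Among the other named genes, differences near 0 or on few counts turned sign. For ALDH1A2 limma voom gave -0.22 and the fit without the replicate block -0.16, and for SLC13A4 they gave -1.01 and -0.86, with -0.06 in the version 4 form. GLIPR1 was 0.02 with RLE scaling and DESeq2 and 0.16 with library size alone, where PLS3 was 0.14. Library size alone moved the median of all genes from -0.13 to 0.09. Over the fits without a rabbit the difference ran from -1.31 to 0.08 for TPM2, -4.24 to 0.09 for OMD, -2.38 to 6.82 for TNFAIP6, -7.18 to 1.40 for NDP, -6.76 to 1.95 for CD163, -0.96 to 8.78 for C1QA, -0.89 to 7.78 for ALDH1A2, -1.81 to 9.24 for SLC13A4, -6.80 to 0.66 for SYT1, -2.71 to 0.75 for AHSP, -3.15 to 2.09 for PECAM1, -2.98 to 0.50 for VWF, -2.61 to 9.19 for CDH5, -1.01 to 0.52 for MYH11, -0.09 to 0.18 for ATP5PF, -1.24 to 1.29 for DPEP2, -0.64 to 0.03 for ENPP2, -0.02 to 0.95 for FNDC1, -0.42 to 0.27 for GLIPR1, -0.37 to 0.84 for GNG11, -0.44 to 0.28 for PLS3 and -1.0 to 0.20 for RYR2.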
